A study of Homo sapiens with 6 samples.

Results

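Glycolysis, glucose uptake and lactate transport were followed through 38 genes, chosen by symbol: the glucose transporters of the SLC2A family, the enzymes from hexokinase to lactate dehydrogenase, the regulators around phosphofructokinase, the lactate carriers and their chaperone. Of the 38, 32 had a probe listed under their symbol, and all 32 were above background (detection p under 0.01) on at least 3 of 6 arrays, through 46 probes. They are 32 of 9841 genes tested on the array. No probe was listed for SLC2A3, SLC2A10, HKDC1, PGAM5, SLC16A1 or SLC16A3, so the main lactate exporters were not analysed here. Whether probes for these genes were undetected or unnamed was not analysed either.

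The cells were PC3, an established line of human prostate cancer carrying a doxycycline-inducible PGC1A construct. Cells given doxycycline for 2 passages (3 arrays) were compared with cells of the same line given none (3 arrays). Both groups carry the construct. No array of doxycycline-treated PC3 cells without it was analysed here, and the effects of doxycycline and of induced PGC1A cannot be told apart. The labels do not say whether replicates were separate cultures, or whether the line is 1 clone. The p-values therefore cover the variation among these 6 arrays, some or all of which may be technical.

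Glycolysis splits glucose into pyruvate in the cytosol. Pyruvate either enters the mitochondrion for oxidation or is reduced to lactate and exported, and tumour cells are known for favouring lactate even when oxygen is present. Several steps have isoenzymes with different habits: the LDHA subunit is known for turning pyruvate into lactate and LDHB for the return reaction, and HK2 and ENO2 are forms often induced in tumours and by low oxygen, beside the widely expressed HK1 and ENO1. PGC1A, the product of PPARGC1A, binds other transcription factors as a coactivator, among them the oestrogen-related receptors (ERR), and is known for raising oxidative metabolism.

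The arrays detected from 15437 to 16012 probes with doxycycline and from 15029 to 15841 without it. On a principal component analysis, doxycycline replicate 2 lay apart at 20.14 on the first component, where the other 5 arrays lay between -11.15 and 2.89. The listed PPARGC1A probe stayed near background, at 5.26, 5.73 and 5.09 log2 signal with doxycycline and 4.94, 5.60 and 5.44 without it (replicates 1 to 3), and whether it reads the construct was not analysed here. Of the epithelial and PC3 markers, KRT8, KRT19, EPCAM and VIM were above background, and their summed log2 signal lay between 12.91 and 13.06 with doxycycline and between 12.90 and 13.06 without it. KRT18 was not among the genes tested. Of other cell types' markers, COL1A1, COL1A2 and LUM (3 of 6 stromal), CD14 (1 of 5 leukocyte) and PECAM1 (1 of 4 endothelial) were tested and none passed. LUM lay at 8.87, 8.85 and 9.04 with doxycycline, against 8.71, 8.50 and 8.55 without it, without overlap (log2 change 0.33, adjusted p = 0.19). The stromal sum, in which COL1A2 weighs most, lay between 11.09 and 11.40 with doxycycline and between 11.14 and 11.32 without it, CD14 between 4.91 and 5.40 with doxycycline and between 5.32 and 5.49 without it, and PECAM1 between 4.88 and 5.87 with doxycycline and between 5.32 and 5.90 without it. Their part in the results was not tested.

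With doxycycline LDHB, a subunit of lactate dehydrogenase, rose 1.43-fold and was the 1 member of 32 (3.12%) past the threshold, where 0.539% of all genes passed and 0.437% passed as higher (limma, Benjamini-Hochberg adjusted p under 0.05). No member fell by that test, where 0.102% of all genes were called lower. Before adjustment 9 members had a p under 0.05, where 14.7% of all genes did. Of the 9, 7 were higher (8.09% of all genes), and PFKFB3 and ENO2 were the 2 that were lower (6.61% of all genes). The 7 include LDHD and SLC2A6, each detected on 3 arrays with doxycycline and 1 without it. Both met the detection filter mainly through the arrays where they were high, so their place in these counts supports nothing further. The median log2 change over the 32 was 0.04, against -0.03 over all genes tested, and the median size of the change, sign ignored, was 0.12 against 0.11. Above 0 lay 20 members (62.5%), where 43.4% of all genes did. The 3 arrays with doxycycline did not overlap the 3 without it in 7 members (21.9%), where 21.5% of all genes showed no overlap, so that share was near the background. All 7 were higher with doxycycline (HK1, PGM1, PFKM, ALDOA, LDHB, LDHD and BSG), where 10.2% of all genes were higher without overlap and 11.3% lower.

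Same-numbered arrays deviated together, so the replicate number was also fitted as a block. With it 3 members passed (9.38%), where 1.80% of all genes did. These were LDHB and LDHD, both higher, and ENO2, which was lower. LDHD met the detection filter mainly through arrays with doxycycline, so its place among the 3 supports nothing further.

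**Figure D1:**
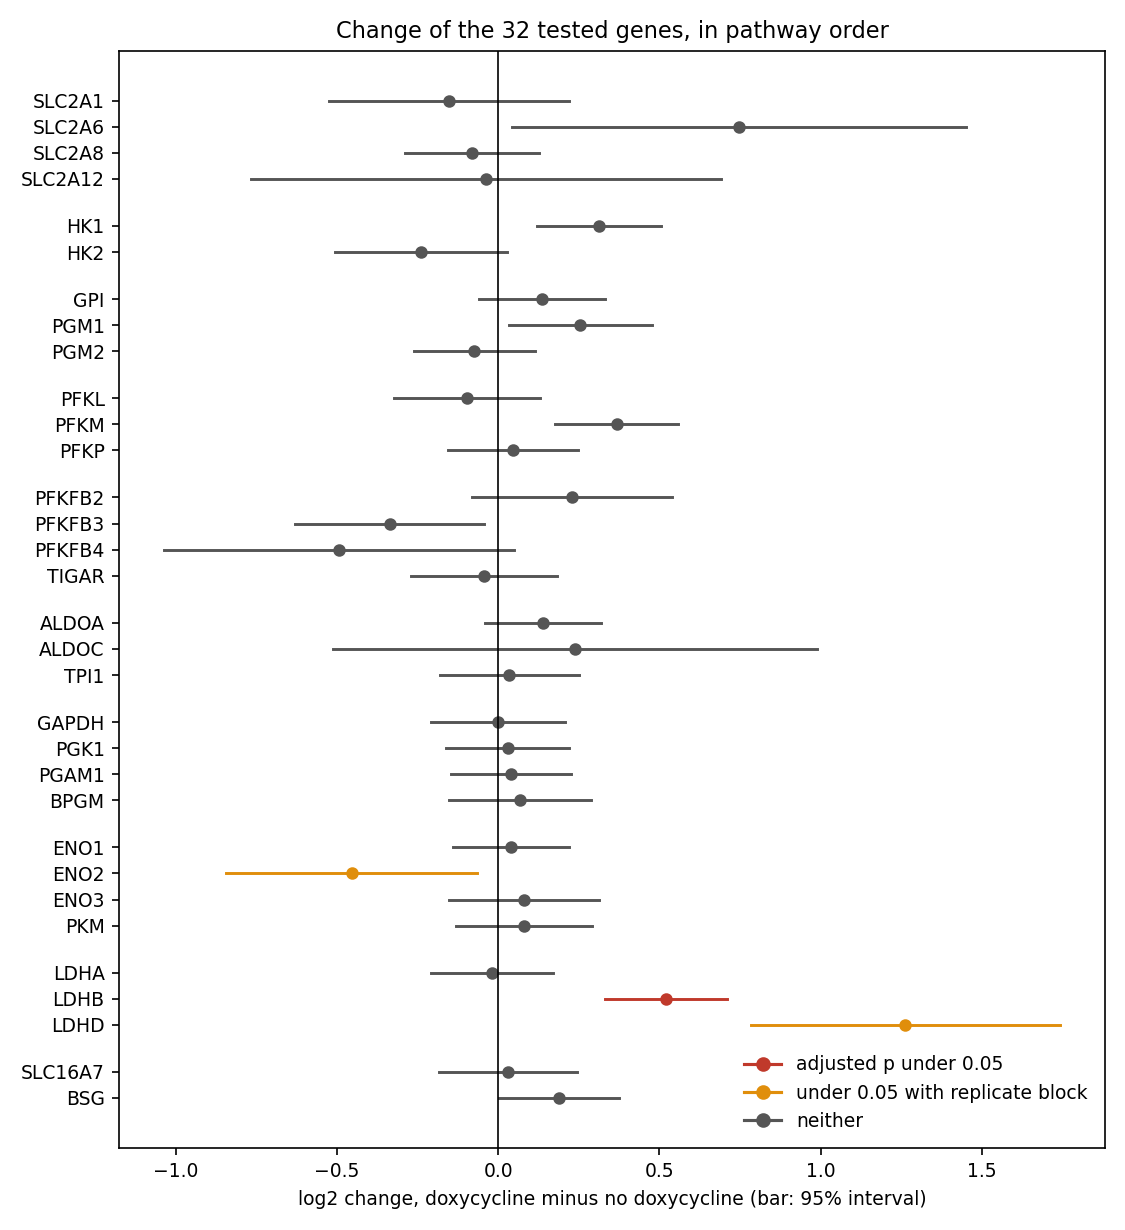
Log2 change of the 32 tested genes (points) with 95% intervals (bars), doxycycline minus no doxycycline, in pathway order from glucose transport at the top to lactate transport at the bottom. LDHB at 0.52 is past the threshold, LDHD at 1.26 and ENO2 at -0.45 miss it in this fit and pass it with the replicate block, and the enzymes from GAPDH to ENO1 sit near 0.

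Among the lactate dehydrogenases 3 genes were measured: LDHA and LDHB, of the last step of the pathway, and LDHD, which acts on D-lactate. LDHB (ILMN_1728132), the heart-type subunit, stood at 10.57, 10.51 and 10.52 log2 signal with doxycycline (replicates 1 to 3), against 10.09, 9.92 and 10.03 without it. Every array with doxycycline lay above every array without it. In RNA from a whole culture, a different share of cells of a kind and a different amount of RNA per cell cannot be told apart. The log2 fold change was 0.52 (SE 0.0813, adjusted p = 0.0438), and the differences within replicate numbers were 0.48, 0.59 and 0.48. The size held when any 1 array was left out, between 0.47 and 0.56, but the call did not: the adjusted p then ranged from 0.0865 without doxycycline replicate 2 to 0.201 without no-doxycycline replicate 2, and each of the 6 arrays was needed for it. It was 0.0575 with the detection filter loosened to 1 or more arrays and 0.0174 without background correction.

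LDHA (ILMN_3249748), the muscle-type subunit, stood at 13.97, 13.98 and 14.06 with doxycycline and at 14.11, 13.95 and 14.01 without it. Those groups overlapped. Its log2 change was -0.02 (SE 0.0818, adjusted p = 0.932), with a 95% interval from -0.21 to 0.17, and its other probe was at -0.08 (adjusted p = 0.748). LDHD (ILMN_2407346), the mitochondrial enzyme that oxidises D-lactate, lay near background, at 6.08, 6.42 and 5.84 with doxycycline and 4.43, 5.03 and 5.10 without it, and was detected on 3 and on 1 of the 3 arrays of those groups. The arrays did not overlap. LDHD met the detection filter mainly through the arrays where it was high. Its place in the counts of members called, higher or without overlap therefore supports nothing further. Its log2 change was 1.26 with an SE of 0.207. The adjusted p was 0.0502, above the threshold by a small margin, and 0.037 when the replicate number was fitted as a block. Without background correction its change was 0.73 (adjusted p = 0.0547), so its size depends on how the background is treated.

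The log2 ratio of LDHA to LDHB on each array sets the isoenzymes against each other; only its difference between groups has meaning, since 2 probes share no scale. It was 3.39, 3.47 and 3.55 with doxycycline, against 4.02, 4.03 and 3.98 without it. The ratio was lower on every array with doxycycline than on any array without it. Its mean difference was -0.54, a ratio 1.45-fold lower with doxycycline (two-sided exact permutation p = 0.1, the smallest that 3 arrays against 3 allow, and 0.15 adjusted over the 3 isoenzyme pairs compared). Leaving out any 1 array kept the difference between -0.57 and -0.50. LDHB changed by 0.52 and LDHA by -0.02, so this ratio restates the LDHB change and is no separate support for it.

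The bases before the start of each gene in RefSeq (GRCh38.p14) are shown for LDHA and LDHB, a pair whose ratio did not overlap between groups. They are the 250 bases upstream, 5′ to 3′ on the gene's strand, with the first of 2 LDHA windows at chr11:18394313-18394562 (plus strand) and the only LDHB window at chr12:21657843-21658092 (minus strand). Capitals mark matches, on either strand, to ACGTG, the core of the hypoxia response element, or to AAGGTCA, the half-site of the ERR receptors.
LDHA: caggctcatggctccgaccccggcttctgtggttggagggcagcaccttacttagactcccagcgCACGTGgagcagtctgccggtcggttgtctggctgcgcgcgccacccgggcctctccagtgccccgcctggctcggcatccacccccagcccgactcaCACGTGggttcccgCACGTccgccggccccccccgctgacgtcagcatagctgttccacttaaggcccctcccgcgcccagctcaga
LDHB: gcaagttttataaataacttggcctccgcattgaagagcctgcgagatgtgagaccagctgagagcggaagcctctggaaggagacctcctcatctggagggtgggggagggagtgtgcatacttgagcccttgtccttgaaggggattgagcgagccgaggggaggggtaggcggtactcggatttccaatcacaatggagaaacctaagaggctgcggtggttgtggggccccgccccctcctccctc
The LDHA window holds ACGTG at 3 places, 185, 87 and 73 bases before the start. The matches at 185 and 87 lie on both strands at once, because they share a palindrome. The second LDHA window, at chr11:18396101-18396350, and the LDHB window hold neither motif, which says only that these letters are not in these windows. Over all 35116 RefSeq windows of that length, 18.5% hold ACGTG and 3.44% hold AAGGTCA. Of the 38 members, 34 matched, with 64 windows that in part overlap each other; 22 windows (34.4%) from 19 members hold ACGTG and 5 (7.81%) from 5 members hold AAGGTCA.

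**Figure D2:**
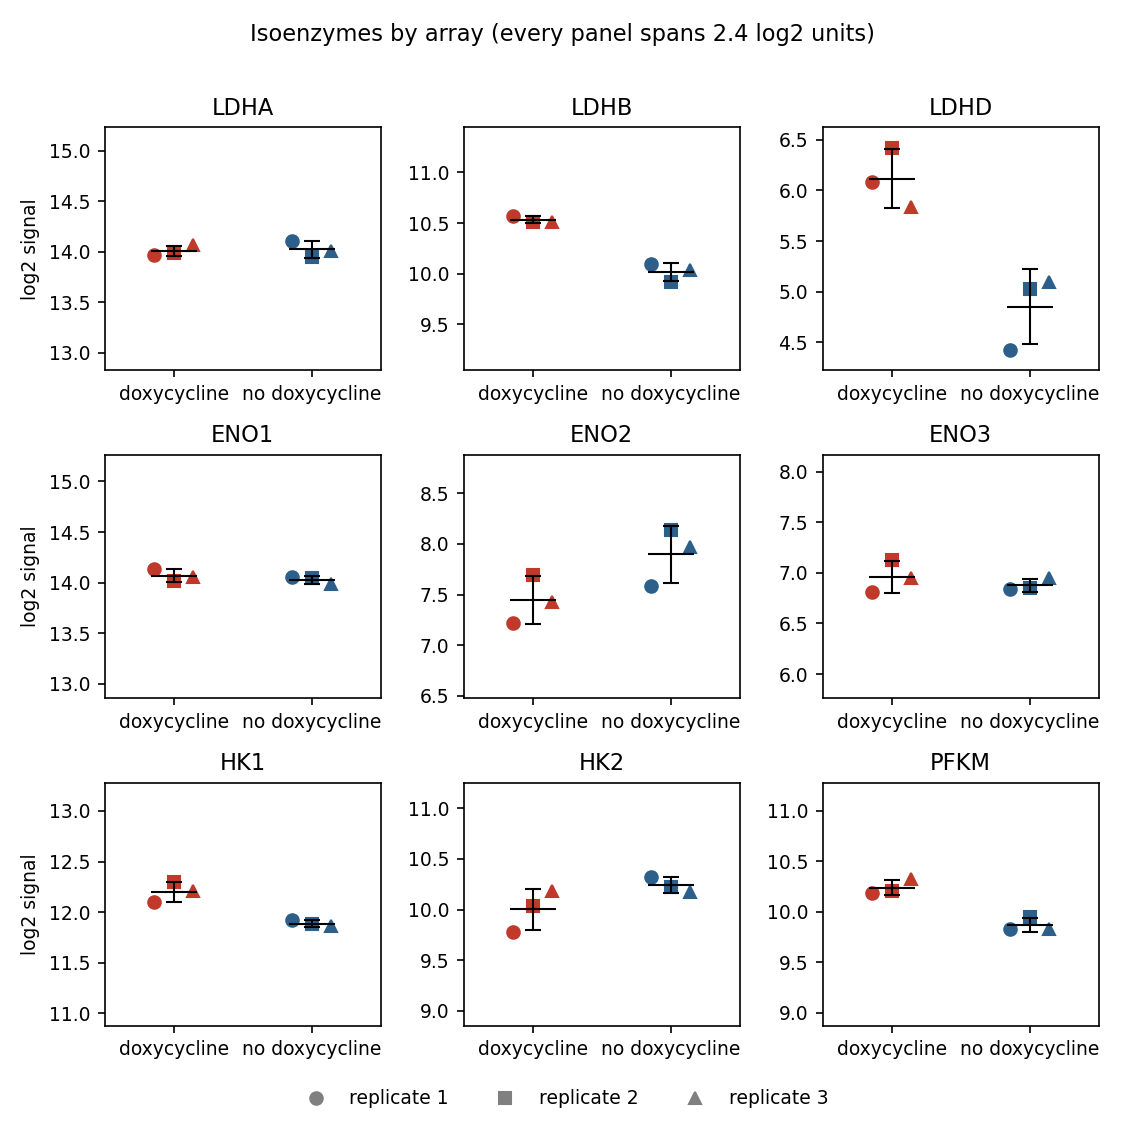
Log2 signal on each array (points, shaped by replicate number) with group mean and SD (lines) for the lactate dehydrogenases, enolases, hexokinases and PFKM, doxycycline left of no doxycycline, every panel spanning the same number of log2 units. LDHB, LDHD, HK1 and PFKM show no overlap between groups, while LDHA and ENO1 stay level.

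Hexokinase traps glucose in the cell as its phosphate, and neither of its 2 measured forms passed the threshold. HK1 (ILMN_2382990) stood at 12.10, 12.29 and 12.20 with doxycycline, against 11.92, 11.88 and 11.86 without it. Its groups did not overlap, and its log2 change was 0.31 (SE 0.083, adjusted p = 0.159). A second, dim HK1 probe was at 0.18. HK2 (ILMN_1723486) stood at 9.78, 10.03 and 10.19 with doxycycline, against 10.32, 10.22 and 10.17 without it. In HK2 the groups overlapped, through replicate 3, and the log2 change was -0.24 (SE 0.115, adjusted p = 0.391). Its second, dimmer probe was at 0.10 (adjusted p = 0.686), so the HK2 probes disagreed in sign. The HK2 change was -0.07 for the mean of its probes and -0.13 without doxycycline replicate 1.

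The log2 ratio of HK1 to HK2 was 2.32, 2.26 and 2.02 with doxycycline, against 1.60, 1.66 and 1.69 without it. No array with doxycycline fell in the range of those without. The mean difference was 0.55, a 1.46-fold higher ratio (two-sided exact permutation p = 0.1, the smallest possible, 0.15 adjusted), and 0.32 for the mean of each gene's probes. By replicate number it was 0.72, 0.60 and 0.33. The windows of this pair are not shown, though its ratio did not overlap either. The HK2 windows hold 2 and 4 matches to ACGTG, counted on both strands, and no HK1 window holds ACGTG or AAGGTCA.

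Among the enolases, which make phosphoenolpyruvate, ENO1 (ILMN_1710756), the general form, stood at 14.14, 14.01 and 14.05 with doxycycline and at 14.05, 14.05 and 13.98 without it (log2 change 0.04, SE 0.0779, adjusted p = 0.847). ENO2 (ILMN_1765796), the form known from neurons, stood at 7.22, 7.69 and 7.42 with doxycycline, against 7.59, 8.14 and 7.97 without it. The ENO2 groups overlapped by 1 array of each, since replicate 2 was the highest and replicate 1 the lowest in both. Within each replicate number ENO2 was lower with doxycycline, by differences of -0.37, -0.44 and -0.55. Its log2 change was -0.45 (SE 0.168, adjusted p = 0.282), and with the replicate block the adjusted p was 0.0474, just past the threshold. ENO3, the muscle form, was at 0.08 (adjusted p = 0.748).

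The log2 ratio of ENO1 to ENO2 was 6.92, 6.32 and 6.63 with doxycycline, against 6.46, 5.91 and 6.01 without it. Here the groups overlapped, and the difference of 0.49 had a two-sided exact permutation p of 0.2 (0.2 adjusted). Within replicate numbers it was 0.45, 0.41 and 0.62. The ENO1 and ENO2 windows are shown in the same way, as the pair of this step, ENO1 at chr1:8878687-8878936 (minus strand) and ENO2 at chr12:6914330-6914579 (plus strand).
ENO1: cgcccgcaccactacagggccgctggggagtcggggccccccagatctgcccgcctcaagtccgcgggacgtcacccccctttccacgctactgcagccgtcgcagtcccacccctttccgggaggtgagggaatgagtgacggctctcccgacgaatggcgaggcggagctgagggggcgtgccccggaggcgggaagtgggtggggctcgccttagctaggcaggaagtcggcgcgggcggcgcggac
ENO2: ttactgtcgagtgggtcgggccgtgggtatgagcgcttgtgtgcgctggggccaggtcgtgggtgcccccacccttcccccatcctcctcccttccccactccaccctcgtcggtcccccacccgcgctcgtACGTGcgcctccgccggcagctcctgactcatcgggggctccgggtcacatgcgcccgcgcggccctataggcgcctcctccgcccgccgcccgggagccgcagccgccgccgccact
The ENO2 window holds 1 match to ACGTG, 118 bases before the start, and the ENO1 window holds neither ACGTG nor AAGGTCA. The ENO1 window does hold GCGTG, a form of the hypoxia core that was not searched, so the windows do not set the pair apart.

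Phosphofructokinase, the committed step, has 3 subunit genes, and PFKM of the muscle type had the second smallest p among those members not past the threshold, after LDHD. PFKM (ILMN_2043809) stood at 10.19, 10.20 and 10.32 with doxycycline, against 9.83, 9.95 and 9.83 without it. Its groups did not overlap, and its log2 change of 0.37 (SE 0.0827) had an adjusted p of 0.12, or 0.073 with the replicate block. PFKL, the liver type, was at -0.10 (adjusted p = 0.691) and PFKP, the platelet type, at 0.05 (adjusted p = 0.844), and both overlapped. Among the 7 PFKM windows in RefSeq, 1 holds an ERR half-site, on the reverse strand 167 bases before the start at chr12:48122397-48122646 (plus strand), and it is shown as the example of that motif.
PFKM: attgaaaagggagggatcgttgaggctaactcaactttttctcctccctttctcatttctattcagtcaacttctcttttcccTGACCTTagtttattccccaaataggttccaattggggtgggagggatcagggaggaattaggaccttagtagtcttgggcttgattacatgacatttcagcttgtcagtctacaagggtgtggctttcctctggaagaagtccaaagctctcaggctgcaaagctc
The other members whose windows hold the half-site are SLC2A6, PFKP, ALDOC and ENO3. Neither they nor PFKM passed the threshold. Another PFKM window, at chr12:48105231-48105480, holds 1 match to ACGTG. Which of these starts PC3 cells use was not analysed here.

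The bifunctional enzymes of the PFKFB family make and remove the sugar phosphate that activates phosphofructokinase, and TIGAR removes it. None of the 4 passed. PFKFB3 (ILMN_2186061) stood at 10.62, 11.07 and 10.68 with doxycycline, against 11.06, 11.16 and 11.15 without it, a log2 change of -0.34 (SE 0.127, adjusted p = 0.29). A second PFKFB3 probe was at -0.35 (adjusted p = 0.239). PFKFB4 (ILMN_1653292) stood at 8.59, 9.56 and 8.85 with doxycycline, against 9.28, 9.69 and 9.50 without it, a log2 change of -0.49 (SE 0.235, adjusted p = 0.383). In both, doxycycline replicates 1 and 3 lay below all arrays without doxycycline and replicate 2 lay among them. Without doxycycline replicate 2, the array that lies apart, the change was -0.48 for PFKFB3 (adjusted p = 0.0865) and -0.77 for PFKFB4 (adjusted p = 0.0928). Without doxycycline replicate 1 it was -0.25 for PFKFB3 (adjusted p = 0.441) and -0.29 for PFKFB4 (adjusted p = 0.589), so either array sets much of the size. PFKFB2 lay near background at 0.23 (adjusted p = 0.481), with its other probe at -0.06, and TIGAR was at -0.04 (adjusted p = 0.867).

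Glucose transporters did not move together. SLC2A1, the GLUT1 carrier that supplies most tumour cells, stood at 9.38, 9.86 and 9.30 with doxycycline, against 9.46, 9.74 and 9.78 without it. Its groups overlapped, with a log2 change of -0.15 (SE 0.161, adjusted p = 0.703). SLC2A6, a lysosomal member of the family, stood at 5.68, 6.71 and 5.49 with doxycycline, against 5.01, 5.55 and 5.09 without it, close to background and detected on 3 and on 1 of 3 arrays. The SLC2A6 change of 0.75 (SE 0.304, adjusted p = 0.32) was 0.37 without doxycycline replicate 2 and 0.43 without background correction. SLC2A8, an intracellular carrier, was at -0.08 (adjusted p = 0.714) and SLC2A12 at -0.04 (95% interval from -0.76 to 0.69, adjusted p = 0.965), so a sizeable change in SLC2A12 could be missed. SLC2A12 was dim, at a mean of 6.04 with doxycycline and 6.08 without it, though detected on every array.

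The doxycycline array of replicate 2 was also the highest of its group in SLC2A12, PFKFB3, PFKFB4, ALDOC and ENO2, and the array of replicate 2 without doxycycline was the highest of its own in SLC2A6, PFKFB3, PFKFB4, ALDOC and ENO2. ALDOC, the brain form of aldolase, stood at 7.86, 9.18 and 8.17 with doxycycline, against 7.85, 8.51 and 8.13 without it. Its change of 0.24 (adjusted p = 0.771) turned to -0.15 without doxycycline replicate 2. Over the 32 members the deviations from the group means correlated between same-numbered arrays at 0.59, 0.68 and 0.17 for replicates 1 to 3, as a description across genes, which are not independent. What the numbers share was not tested.

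**Figure D3:**
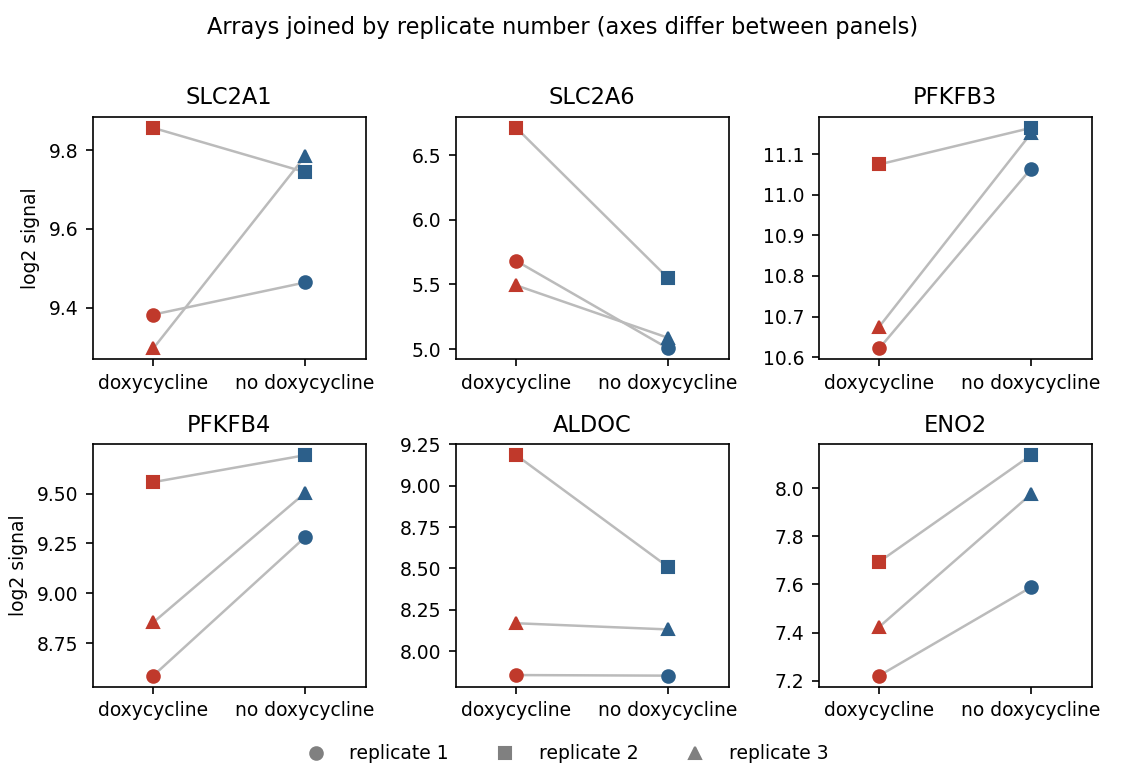
Log2 signal of 6 members on each array, doxycycline left of no doxycycline, with lines joining arrays of the same replicate number (axes differ between panels). Replicate 2 with doxycycline (red square) is the highest array of its group in each panel, and the ENO2 lines run nearly parallel, with differences of -0.37, -0.44 and -0.55.

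The core enzymes that every cell uses stayed close to 0 in their change on their brightest probes. Dimmer probes, where there were any, lay between -0.09 (TPI1) and 0.30 (ALDOA). Whether signal near the top of the array compresses a change was not tested. For GPI, ALDOA, TPI1, GAPDH, PGK1, PGAM1, ENO1, PKM and LDHA, on the brightest probe of each, the log2 changes lay between -0.02 and 0.14 and their 95% intervals between -0.21 and 0.33, with adjusted p from 0.459 to 0.997. GAPDH (ILMN_2038778), the dehydrogenase that makes NADH, stood at 13.59, 13.49 and 13.61 with doxycycline and at 13.61, 13.43 and 13.65 without it, a log2 change of -0.00090. Its other 2 probes were at -0.03 and 0.08. PGK1, which makes the first ATP of the pathway, was at 0.03 with its second probe at 0.13, the mutase PGAM1 at 0.04 and BPGM, the bisphosphoglycerate mutase of red cells, at 0.07. TPI1, the triose phosphate isomerase, was at 0.04 on its brightest probe and at -0.09 on its other probe. GAPDH, PGK1, PGAM1 and LDHA have near-identical gene copies or pseudogenes, and whether their probes also read these was not analysed here.

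Within this group ALDOA alone had no overlap between the arrays on its brightest probe, and it did not pass the test. ALDOA, the main aldolase, stood at 12.80, 12.85 and 12.85 with doxycycline, against 12.64, 12.68 and 12.77 without it (log2 change 0.14, SE 0.0779, adjusted p = 0.459). Its second probe, also without overlap, was at 0.30 (adjusted p = 0.187 over all 15542 probes). PKM, the pyruvate kinase whose splice forms differ between tumour and muscle, was at 0.08 on its brightest probe (adjusted p = 0.722), and its other 2 probes were at 0.17 and 0.19. Which splice form each PKM probe reads was not analysed here. GPI, the isomerase of glucose phosphate, was at 0.14 (adjusted p = 0.503).

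Phosphoglucomutase connects glycolysis with glycogen. PGM1 (ILMN_1800659) stood at 11.68, 11.89 and 11.65 with doxycycline, against 11.47, 11.56 and 11.42 without it. Its groups did not overlap, with a log2 change of 0.26 (SE 0.0953, adjusted p = 0.284). PGM2 was at -0.07 (adjusted p = 0.717).

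For lactate transport, 2 of the 4 genes were measured. BSG, the basigin chaperone that carries lactate transporters to the cell surface, stood at 10.26, 10.30 and 10.28 with doxycycline, against 10.03, 10.05 and 10.19 without it. Those groups did not overlap, and the log2 change was 0.19 (SE 0.0802, adjusted p = 0.336). SLC16A7, the carrier MCT2, was at 0.03 on its brightest probe (adjusted p = 0.9) and at -0.07 on its other probe.

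The routes on either side of glycolysis were counted from lists of 8 to 25 genes chosen by function. In the side branches few genes moved. Of the other glycolytic isoforms and carriers, 3 of 25 were tested and none passed, with ADPGK at -0.15, PGAM4 at 0.14 and SLC2A11 at 0.08. SLC2A11 lay near background, detected on 2 arrays with doxycycline and 1 without it. Whether the PGAM4 probe also reads PGAM1 was not analysed here. None of 4 tested of 8 passed in gluconeogenesis (median -0.01), where G6PC3 was at 0.18, SLC37A4 at -0.13 and PC at 0.11. In the pentose phosphate pathway, which makes NADPH and ribose, none of 6 tested of 9 passed (median -0.02), with TALDO1 at -0.08, RPIA at -0.09 and PGLS at 0.05. Of 14 glycogen genes 11 were tested and none passed (median 0.08); UGP2, which makes UDP-glucose, was at 0.28 (adjusted p = 0.197), PYGL at 0.14 and PHKA2 at -0.14.

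In the hexosamine and polyol branches 4 of 8 were tested (median 0.02). UAP1, which makes the UDP-sugar used in glycosylation, stood at 6.92, 6.66 and 6.71 with doxycycline, against 6.37, 6.18 and 6.16 without it, without overlap. Its log2 change of 0.53 had an adjusted p of 0.0912, and of 0.0322 with the replicate block, and KHK was at -0.24 and GNPNAT1 at 0.10. Among 16 sensors and regulators of glycolytic genes 10 were tested and none passed (median 0.11). EPAS1, the hypoxia factor HIF2A, stood at 8.99, 8.22 and 8.63 with doxycycline, against 8.04, 7.60 and 8.15 without it. Its log2 change of 0.69 (adjusted p = 0.221) passed with the replicate block (adjusted p = 0.0445), while HIF1A was at 0.35 (adjusted p = 0.317) and PRKAA1, a subunit of the energy sensor AMPK, at 0.21.

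Downstream, where pyruvate and the electrons of NADH enter the mitochondrion, more genes passed. Of 13 genes of pyruvate entry and pyruvate dehydrogenase 10 were tested. MPC1 (1.23), MPC2 (0.62) and PDHA1 (0.57) rose, 3 called higher where 0.437% of all genes were. The list median was 0.55 against -0.03 over all genes. That list also holds the kinases of pyruvate dehydrogenase, PDK2 (0.06), PDK3 (-0.27) and PDK4 (0.32), none of which passed. DLAT, the acetyltransferase of that complex, named after its values were seen, had a change of 0.59, with adjusted p = 0.0502 in the fit without a block and 0.037 in the fit with one. Of 10 genes of the NADH shuttles 8 were tested and all lay above 0 (median 0.29), where 43.4% of all genes did. GOT1, the cytosolic aspartate transaminase, was the 1 called, and rose (1.04, adjusted p = 0.0127). The lists were chosen with earlier results of these data known, and the difference between them and the glycolytic genes was not tested.

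**Figure D4:**
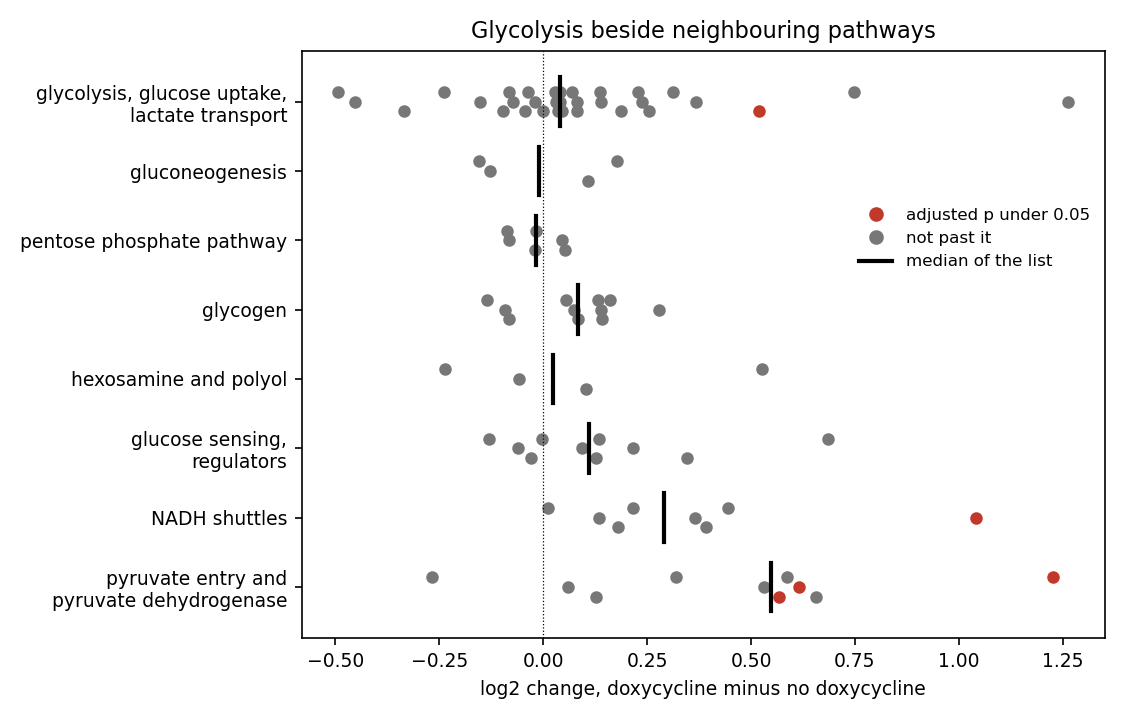
Log2 change of each tested gene (points) in glycolysis and in neighbouring pathways, doxycycline minus no doxycycline, with the median of each list (black bar). The median is 0.04 for glycolysis and 0.55 for pyruvate entry and pyruvate dehydrogenase, and the genes past the threshold (red) are LDHB, GOT1, MPC1, MPC2 and PDHA1.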

How the data were processed

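Total RNA was labelled with a biotin kit for Illumina arrays, per the labels' protocols, and each sample has 1 array. The authors deposited a table of probe intensity (47231 probes, linear) with detection p-values, and processed log2 values for 17925 probes. The submitters' processing notes name lumi; no version, scanner software or build is given in the sources used here. Those log2 columns share 1 median (7.507) and correlate with their own arrays at 0.9999 or more. Array number limits the precision.

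Intensities were corrected with normexp (offset 16), quantile-normalized and logged (limma 3.58.1 neqc, R 4.3.3). Of 17925 probes, 13977 had 1 listed gene, 4 had several and 3944 were unlisted and stay unnamed; symbols were updated through Entrez numbers in RefSeq (13970 matched). Probes with detection p under 0.01 on 3 or more of 6 arrays (15542) were kept, and the brightest probe stood for a gene. Groups were compared with lmFit and eBayes, two-sided, adjusted over 9841 genes; probe values were adjusted over 15542 probes. Isoenzyme ratios were compared by exact permutation over the arrays.

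All members are named. Of other lists, called genes are named, otherwise up to 3 with the smallest p, and DLAT and the PDK genes are named beyond that rule. The members and lists were chosen with earlier results of these data known. Titles number replicates 1 to 3 in both groups. Deviations from group means over all genes correlated between same-numbered arrays at 0.454, 0.523 and 0.299, so the numbers pair the samples by that check. Between other numbers the correlations were -0.0656 or below. Deviations sum to 0 within a group, so positive same-number values push the others below 0 on average. The negative values are therefore no separate evidence of pairing.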

Additional observations from a re-analysis of the deposited data

How the results depend on the processing

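LDHB, LDHD, ENO2 and the 3 isoenzyme ratios kept their direction under the alternatives run, except that LDHD was not tested among genes detected on all 6 arrays. Slide as a block was not run, since the headers give no slide. The 53 genes called (1 of them a member) became 81 without background correction and 81 on the authors' deposited log2 table (1 member each). They became 30 with the detection filter loosened to 1 or more arrays (0 members) and 63 among genes detected on all 6 arrays (1 member). For the mean of a gene's probes they were 66 (2 members, LDHB and LDHD), and with the replicate block 177 (3 members). All listed probes were detected on 1 or more arrays, so no setting was free of a detection filter. Without 1 array they were 1 to 9, with 0 members in each (4, 9 and 5 without doxycycline replicates 1, 2 and 3, and 6, 1 and 1 without no-doxycycline replicates 1, 2 and 3). The block changed no member's call other than LDHD and ENO2. With each replicate number once in each group, the block cannot alter a log2 change, so it does not test direction. A few changes near 0 turned sign. For the mean of a gene's probes TPI1 was at -0.028, GAPDH at 0.016 and SLC16A7 at -0.020. Without 1 array the ranges that crossed 0 were -0.32 to 0.26 for SLC2A12, -0.11 to 0.019 for TIGAR, -0.15 to 0.51 for ALDOC, -0.033 to 0.097 for TPI1, -0.066 to 0.041 for GAPDH, -0.020 to 0.067 for PGK1, -0.0041 to 0.080 for PGAM1, -0.0045 to 0.12 for BPGM, -0.0016 to 0.16 for ENO3, -0.056 to 0.024 for LDHA and -0.033 to 0.081 for SLC16A7. Why these values moved was not tested beyond what each setting removes. Signal close to background limits LDHD, SLC2A6, SLC2A12 and PFKFB2, and 3 arrays a group limit all of them.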
